A study of Homo sapiens with 2 samples.

Results

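The clustered protocadherins are a family of cell surface adhesion genes that lie side by side in 3 clusters, alpha, beta and gamma, on the long arm of human chromosome 5. Members were taken as every gene of the deposited table whose name starts with PCDHA, PCDHB or PCDHG followed by a letter or digit and whose locus is on chromosome 5. This gave 47 of 15603 listed genes, 9 in the alpha, 18 in the beta and 20 in the gamma cluster. RNA was sequenced from A172, an established human glioblastoma cell line, in 1 parental library labelled without temozolomide (TMZ), the alkylating drug used against this tumour, and in 1 library of the cell line A172-r#6, a resistant clone selected with TMZ and labelled with TMZ. The clone, its selection and the drug present therefore differ together and cannot be told apart. Each group has 1 library, so a difference here is one between those libraries, with no replicate check and no p-value of its own. In such bulk RNA, fewer cells expressing a gene and less RNA per cell cannot be told apart.

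Each alpha and gamma protocadherin is made from its own large variable exon, which has its own promoter and encodes the extracellular cadherin repeats, the transmembrane segment and the start of the tail. That exon is spliced to constant exons shared by the whole cluster, which encode the common end of the tail. Beta genes have a large exon of their own and no constant exons. In neurons, each cell expresses a subset of the variable exons, chosen promoter by promoter with the help of CTCF and cohesin, and the resulting proteins bind their own kind on the next cell. The last exons of the alpha and gamma clusters, called C-type, are known to follow a different pattern from the others. The gamma genes are also active in astrocytes, and long-range silencing of protocadherin clusters is known from several tumours.

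The shared exons set what the values of single alpha and gamma genes can say, so they are shown first. In GENCODE release 29 (GRCh38) the first constant exon of the alpha cluster lies at chr5:140978949-140979007 and that of the gamma cluster at chr5:141494807-141494865, both on the plus strand. Each is 59 bases long and coding throughout, and the sequences, in lower case with no part marked, are identical at 39 of 59 positions:
alpha constant exon 1: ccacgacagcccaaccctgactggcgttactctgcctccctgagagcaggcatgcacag
gamma constant exon 1: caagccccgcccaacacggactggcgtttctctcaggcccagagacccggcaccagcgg
A fragment that lies wholly within constant exons can therefore be placed in a cluster but not in a gene of it. One that runs on into a variable exon can hold sequence of a single gene. All 9 alpha members and 18 of 20 gamma members are annotated with the first constant exon of their cluster, and the exceptions are the gamma pseudogenes PCDHGB8P and PCDHGB9P. The second constant exons hold 89 bases each, and the third hold 2718 bases in the alpha and 2033 in the gamma cluster.

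The share of each gene that cannot be told from another gene was measured as the share of its 50-base windows, over all annotated transcripts, that also occur in a transcript of another gene. It had a median of 49.3% in the alpha members (23.1% to 65.2%), of 42.9% in the gamma members (0% to 55.3%) and of 15.5% in the beta members (4.73% to 49.3%). Within the variable exon alone the medians were 9.06% for alpha, 3.76% for gamma and 15.6% for beta. PCDHB8 had the highest share of its variable exon in this count, at 49.3%, and shared 33.0% of its windows with PCDHB13. How the authors divided fragments of shared exons among genes is not given in the sources used here. All members but PCDHB2 also share their listed locus with other members.

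The promoters of the clusters differ in the letters around matches to a short string, CGCT. This string is known as the core of the conserved sequence element of protocadherin promoters. Matches were counted by these letters alone, and whether a given match is the element was not tested. RefSeq promoter sequences (GRCh38.p14, 250 bases before to 50 after each start) matched 37 of the 47 members. CGCT occurred on the gene's strand within the 100 bases before the start in 35 of these 37 genes, against 32.2% of the 27305 genes in the promoter table. On either strand of all 300 bases it occurred in each of the 37 and in 71.9% of all genes. The 30-base windows below centre on the first such match and are shown for examples from each cluster, picked after their values were seen, with CGCT in capitals, all on the plus strand:
PCDHA4 (chr5:140806982-140807011): agccacatgatgtCGCTctttaccacaaaa
PCDHA12 (chr5:140875247-140875276): agtcacatgatgtCGCTctacactcagaag
PCDHAC1 (chr5:140926223-140926252): tagaaggtgtggtCGCTcacgttcaccgtc
PCDHAC2 (chr5:140966368-140966397): agcagtccgggttCGCTgtccgccacttcg
PCDHB3 (chr5:141100396-141100425): gaacgcatggtggCGCTgttgactaagaag
PCDHB5 (chr5:141135182-141135211): ggacgcctggtggCGCTgcaggctaagagt
PCDHB9 (chr5:141187077-141187106): agccacaaggtggCGCTgcagactgaagag
PCDHB10 (chr5:141192302-141192331): ggccacacggtggCGCTgcaggctaaagag
PCDHB14 (chr5:141223266-141223295): agacacatggtggCGCTacaggataagacg
PCDHB16 (chr5:141182313-141182342): gaacgcgtggtggCGCTgcaggttaagatg
PCDHGA10 (chr5:141412934-141412963): ggactctgagcgcCGCTgttcacctactag
PCDHGB7 (chr5:141417610-141417639): agtgcagagcaagCGCTgacgccggggatc
PCDHGC3 (chr5:141475883-141475912): ggactctgtgtgcCGCTgtcggccaatgaa
Longer strings that hold CGCT were picked after reading these windows and counted on both strands of the whole 300 bases, so they overlap it by construction. GGTGGCGCTG occurred in 12 of 13 matched beta genes, in no alpha or gamma gene, and in 0.341% of all genes. ATGTCGCT occurred in 5 of 8 alpha genes, in no beta or gamma gene, and in 0.282% of all genes. GCCGCTGT occurred in 9 of 16 gamma genes, in no alpha or beta gene, and in 1.98% of all genes. PCDHB8 and PCDHGB2 had no CGCT on the gene's strand in the 100 bases before their annotated start. Outside that stretch it occurred on the gene's strand, at position 3 from the start in PCDHB8 and at -199 in PCDHGB2. Its absence in the 100 bases thus depends on the annotated start and the stretch chosen.

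Levels are given as deposited, in FPKM, a count of fragments corrected for gene length and library depth, which allows comparison between genes per length. The 2 libraries had summed FPKM of 299594 and 323932 and medians of 6.84 and 7.14, and their depth in fragments is unknown. The higher value of every listed gene was at least 0.544 FPKM, so genes low in both libraries are not analysed here. GENCODE release 29 has 59 genes named by the same pattern, and the other 12, among them PCDHA1, PCDHB1 and PCDHGB4, are not analysed here. No member was listed at 0 in either library. Of 8 astrocyte markers only GLUL and CLU were listed, and GFAP was not among them, while vimentin, VIM, had 632 FPKM in parental and 804 in resistant cells. The 5 genes of the mesenchymal glioma line list, of which VIM was the most abundant, summed to 755 and 980 FPKM. CD44 and FN1 of that list were higher too, although nestin, NES, was at 33.7 and 5.08 and SOX2 at 2.23 and 0.253. The 2 astrocyte genes summed to 139 and 73.2. Markers of other cell types differed too. The 4 listed endothelial and pericyte genes, of 5, summed to 79.7 and 34.9 FPKM. In that sum RGS5 was entered more than once, at 1.87 and 1.60 and at 22.8 and 1.55. The 3 listed epithelial genes, of 4, summed to 605 and 1609, with KRT8 and KRT18 higher and EPCAM lower, at 0.797 and 0.669. The 3 listed neuron genes, of 5, summed to 106 and 77.1 FPKM. Of these TUBB3 was lower, at 91.3 and 60.6, and so was STMN2, at 1.12 and 0.404, while SYT1 was higher, at 13.3 and 16.1. OLIG2, the only listed gene of 4 oligodendrocyte markers, had 1.43 and 3.42. CDH1 and VWF were not listed, and the 2 listed myeloid and lymphoid genes, of 5, summed to 2.52 and 0.919 FPKM. The part of these genes' cell types in the results was not tested.

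Most beta and gamma protocadherins were lower in the resistant library, and the alpha genes were split. The value was lower by any amount in 17 of 18 beta and 20 of 20 gamma members, against 47.7% of all listed genes, and in 4 of 9 alpha members. The other 5 alpha members were higher, against 52.3% of all listed genes. Summed over members, the gamma cluster had 124 FPKM in parental and 52.8 in resistant cells, 2.34 times less. The beta cluster had 83.8 and 43.2 FPKM, 1.94 times less. The alpha cluster had 12.8 and 14.7 FPKM, 1.15 times more. The difference between clusters could not be tested with 1 library per group.

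**Figure D1:**
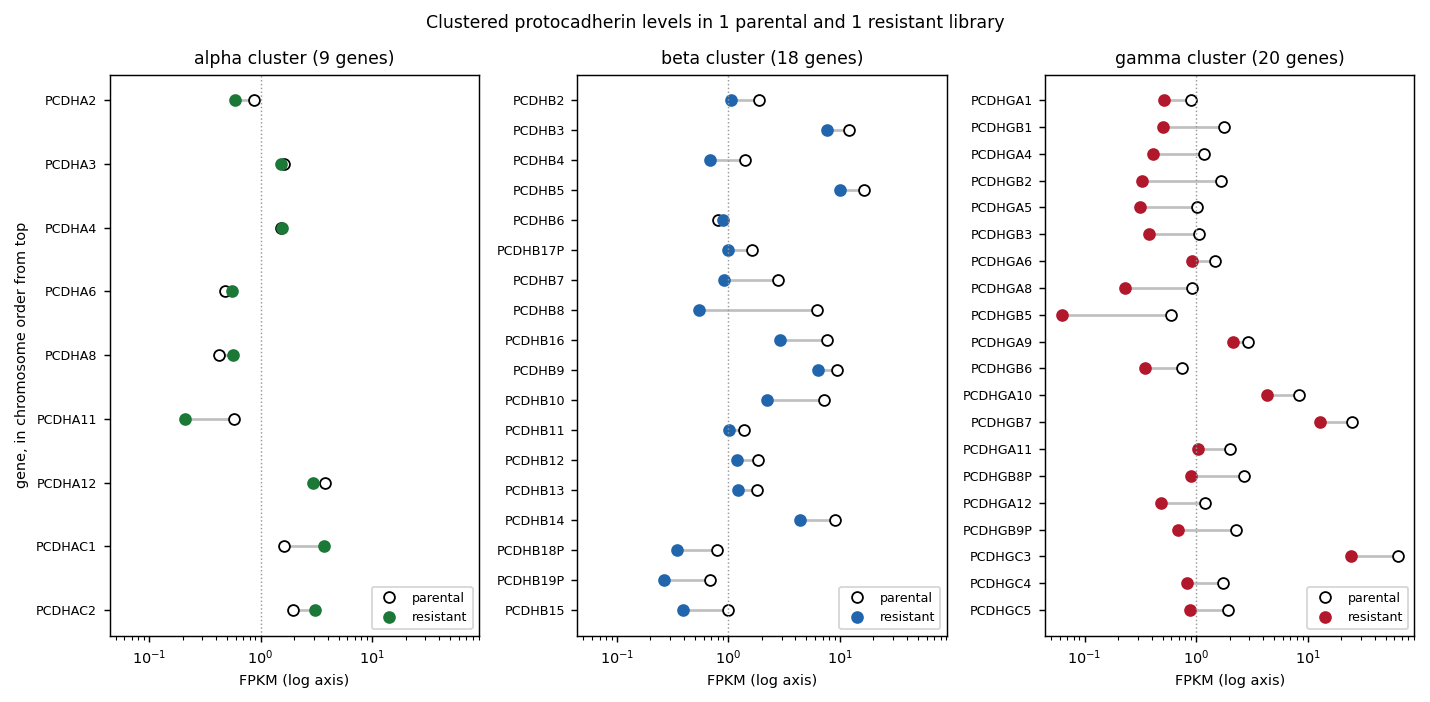
FPKM (log axis) of each member in the parental (open circles) and resistant (filled circles) library, 1 library each, in chromosome order from top to bottom within each cluster, with a dotted line at 1 FPKM. All 20 gamma genes and 17 of 18 beta genes have the filled circle on the left, while 5 of 9 alpha genes have it on the right.

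Folds were taken on the log2 scale as (resistant FPKM + 1) divided by (parental FPKM + 1), a scale on which low genes have folds smaller than their FPKM ratio. A gene was called when this fold was at least 2-fold in either direction, and genes with 1 FPKM or more in either library entered the calls and are termed tested, with no statistical test. Of the 47 members, 36 passed this filter, 5 were called lower and none higher. All 36 had 1 FPKM or more in the parental library, but only 20 had it in the resistant one. The others, with PCDHB8 and PCDHGB2 among those called, passed only through the parental library, where they were high. Over all tested genes, 3.82% were called lower and 4.59% higher. The 11 members under the filter had at most 0.916 FPKM, and 8 of them were lower in the resistant library. The median log2 fold over all 47 members was -0.53, against 0.03 over all listed genes. By cluster it was 0.02 for alpha, -0.51 for beta and -0.62 for gamma. The alpha value turned to -0.02 with the libraries scaled to equal medians. On the plain FPKM ratio, which needs no added constant, 24 of 47 members were at least 2-fold lower and 1 was at least 2-fold higher, against 9.03% and 8.99% of the listed genes above 0 in both libraries. The medians of the plain log2 ratio were 0.04 for alpha, -0.93 for beta and -1.35 for gamma.

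**Figure D2:**
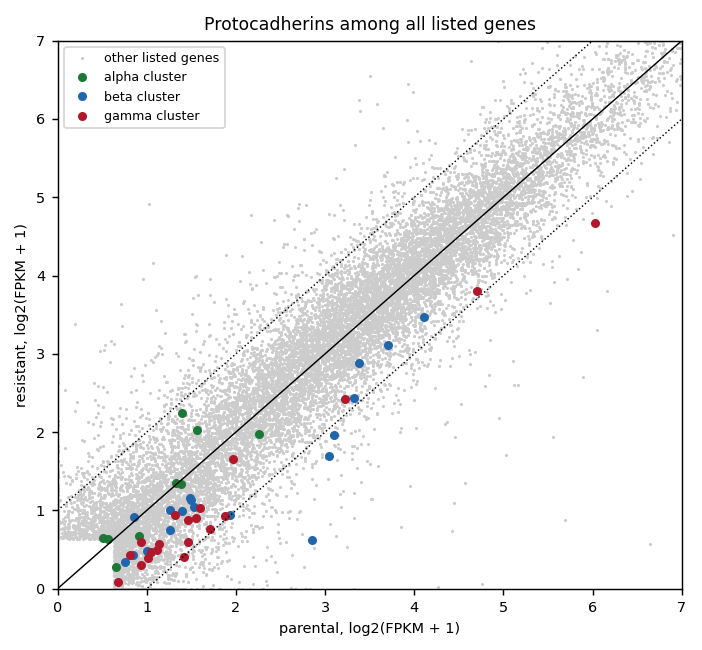
Levels as log2(FPKM + 1) of all listed genes (grey points) and of the members (coloured by cluster) in the parental (horizontal) and resistant (vertical) library, with the diagonal and dotted lines at 2-fold, and axes cut at 7. Beta and gamma members lie mostly under the diagonal, with 5 of them beyond the lower 2-fold line.

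The gamma cluster held the most abundant member, PCDHGC3, a C-type gene (ENSG00000240184, chromosome 5, 141475947 to 141512979, GRCh38). PCDHGC3 had 64.1 FPKM in parental and 24.5 in resistant cells, with a log2 fold of -1.35. It made up 51.9% of the gamma sum in the parental library and 46.4% in the resistant one. None of the windows of its variable exon, 141475947 to 141478795, occurred in another gene, but over all its annotated transcripts 38.4% did. Without PCDHGC3 the other 19 gamma members summed to 59.4 and 28.3 FPKM, 2.10 times less. The gamma sum was thus lower in the resistant library without its most abundant gene too. The other C-type gamma genes were far less abundant, with PCDHGC4 at 1.75 and 0.832 FPKM (log2 fold -0.58) and PCDHGC5 at 1.93 and 0.876 (-0.64).

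**Figure D3:**
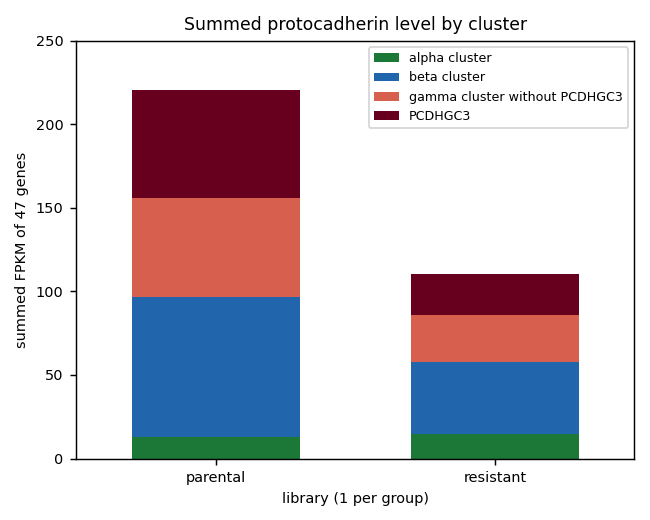
Summed FPKM of the 47 members in the parental and resistant library, 1 library each, as stacked bars from 0 with the alpha, beta and gamma clusters in separate colours and PCDHGC3 apart from the other gamma genes. The whole bar is 220 FPKM high in parental and 111 in resistant cells, and the alpha segment at the bottom is 12.8 and 14.7 FPKM high.

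Gamma variable exons come in A and B types that alternate along the chromosome. PCDHGB7 was the most abundant B-type gene, with 25.0 FPKM in parental and 12.96 in resistant cells, a log2 fold of -0.90. PCDHGA10, its neighbour, was the most abundant A-type gene, with 8.33 and 4.34 FPKM (-0.80). These genes and PCDHGC3 made up 78.9% of the gamma sum in parental and 79.2% in resistant cells, so the gamma total rested on 3 genes in both. PCDHGB2 was the only other gamma gene called lower, with 1.67 and 0.325 FPKM (-1.01), just past the threshold, and it shared 11.3% of its variable exon windows with other genes. PCDHGB1, which shares most of these, had 1.76 and 0.508 FPKM (-0.87). The smallest gamma difference was that of PCDHGA9, at 2.92 and 2.16 FPKM (-0.31).

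Among the 9 A-type gamma members the median log2 fold was -0.57, with 4 at least 2-fold lower by the plain ratio. Among the 8 B-type members it was -0.89, with 7 at least 2-fold lower by the plain ratio. These 8 were taken by name and include the pseudogenes PCDHGB8P and PCDHGB9P. Both are among the 7, with log2 folds of -0.94 and -0.95, larger in size than that median. Of all listed genes above 0 in both libraries, 9.03% were at least 2-fold lower by the plain ratio. The difference between the types was not tested. The remaining gamma genes had low levels. PCDHGA1, PCDHGA4, PCDHGA5, PCDHGA6, PCDHGA8, PCDHGA11 and PCDHGA12 ran from 0.907 to 2.03 FPKM in parental and from 0.229 to 1.05 in resistant cells. PCDHGB5 had 0.596 and 0.0627 FPKM, a plain ratio of 9.49 at levels under the filter. PCDHGA8 had 0.916 and 0.229 FPKM, a ratio of 4.01, also under the filter. PCDHGB3 had 1.07 and 0.382 FPKM and PCDHGB6 0.755 and 0.347.

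The gamma pseudogenes carry no constant exon in GENCODE release 29. Which gene models the authors counted is not known here, and both genes lie in the listed locus that all 20 gamma members share. PCDHGB8P had 2.67 FPKM in parental and 0.908 in resistant cells (log2 fold -0.94), with 0.956% of its windows in another gene. PCDHGB9P had 2.27 and 0.693 FPKM (-0.95), with none of its windows in another gene. Both were lower in the resistant library and just short of the 2-fold call.

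Beta protocadherins, which have no constant exons, give one value per gene with less shared sequence. PCDHB5 was the most abundant, with 16.3 FPKM in parental and 10.1 in resistant cells, a log2 fold of -0.64. PCDHB3 had 12.1 and 7.67 FPKM (-0.59) and PCDHB9 9.42 and 6.35 (-0.50). These were the leading beta genes in both libraries, and all were lower by less than 2-fold. Their share of the beta sum was 45.0% in parental and 55.9% in resistant cells, and several less abundant genes had larger folds.

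The genes called lower lay close together in the beta cluster. PCDHB8 (ENSG00000120322, chromosome 5, 141177790 to 141180529, GRCh38) had 6.21 FPKM in parental and 0.543 in resistant cells, a log2 fold of -2.22 and a plain ratio of 11.4. PCDHB8 had the largest fold of all members, and its value is uncertain because 49.3% of its windows occur in other genes. PCDHB13, with which it shares most of them, had 1.79 and 1.23 FPKM (-0.32). PCDHB16, the next gene along (141181399 to 141186399), had 7.60 and 2.88 FPKM (-1.15), with 18.3% of its windows shared. PCDHB10 (141192353 to 141195642) had 7.21 and 2.24 FPKM (-1.34), with 35.4% shared. PCDHB9 lies between PCDHB16 and PCDHB10 and was not called.

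Just outside the 2-fold call was PCDHB7, the gene before PCDHB8, with 2.81 FPKM in parental and 0.914 in resistant cells (log2 fold -0.99). It was called with the libraries scaled to equal medians (-1.03). PCDHB14 had 9.04 and 4.41 FPKM (-0.89). The 8 tested beta genes PCDHB2, PCDHB4, PCDHB11, PCDHB12, PCDHB13, PCDHB15, PCDHB17P and PCDHB7 had 1.003 to 2.81 FPKM in parental and 0.389 to 1.23 in resistant cells. PCDHB6 was the only beta gene with a higher value in the resistant library, at 0.806 and 0.892 FPKM, both under the filter. The pseudogenes PCDHB18P, at 0.797 and 0.347 FPKM, and PCDHB19P, at 0.681 and 0.265, were under the filter as well. Several beta genes overlap annotated genes on the opposite strand, and whether strand was used in counting is not given in the sources used here.

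**Figure D4:**
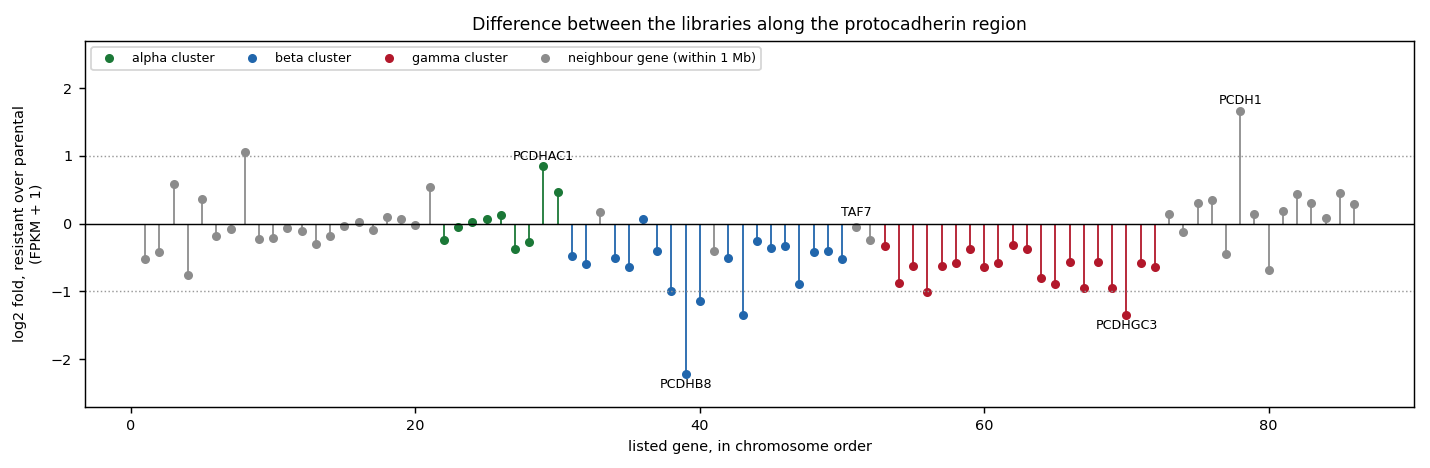
Log2 fold of resistant over parental on FPKM + 1 (vertical axis) for the members and for other listed genes within 1 Mb of the clusters (grey), in chromosome order (horizontal axis), with dotted lines at 2-fold. The beta and gamma members lie mostly below 0, while TAF7 between them and most genes on either side lie near 0.

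The alpha cluster was the least abundant, and no alpha gene was called on the log2(FPKM + 1) scale. PCDHA12 led in the parental library, with 3.77 FPKM there and 2.94 in the resistant library (log2 fold -0.28). The C-type alpha genes had the largest folds among the tested alpha genes, both toward higher values in the resistant library. PCDHAC1 (chromosome 5, 140926369 to 141012344) had 1.62 and 3.71 FPKM (0.85), a plain ratio of 2.29, and PCDHAC2 had 1.95 and 3.06 (0.46), a plain ratio of 1.57. None of the windows of either variable exon occurred in another gene. Over all annotated transcripts, to which the FPKM values may refer, 40.9% of the windows of PCDHAC1 and 45.0% of those of PCDHAC2 did. Both genes led the alpha cluster in the resistant library.

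The remaining tested alpha genes, PCDHA3 and PCDHA4, had nearly equal values in the 2 libraries. PCDHA3 had 1.61 FPKM in parental and 1.53 in resistant cells and PCDHA4 1.51 and 1.55, with log2 folds of -0.05 and 0.02. The 4 alpha members under the filter split in direction, with PCDHA6 at 0.482 and 0.557, PCDHA8 at 0.426 and 0.565, PCDHA2 at 0.878 and 0.586 and PCDHA11 at 0.575 and 0.212 FPKM. The C-type genes thus differed in direction between clusters, higher in alpha for 2 of 2 and lower in gamma for 3 of 3. All 20 gamma members were lower, so that direction is not particular to the C-type gamma genes. Over all listed genes 52.3% were higher and 47.7% lower.

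The order of the genes by level was similar in the libraries, with a Spearman's rho of 0.80 across the 47 members. This is a description across genes, which share libraries and, within clusters, exons. At 5 FPKM or more there were 10 members in parental and 5 in resistant cells, and at 1 FPKM or more 36 and 20. The alpha cluster made up 5.82% of the summed member level in parental and 13.3% in resistant cells, the beta cluster 38.1% and 39.0%, and the gamma cluster 56.1% and 47.7%.

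Shared sequence was set beside the differences gene by gene. Among the 23 members with 10% or less of their variable exon windows in another gene, 20 were lower in the resistant library, with a median log2 fold of -0.56. Among the 24 with over 10%, 21 were lower, with a median of -0.52. Over all listed genes 47.7% were lower. In the gamma cluster the 15 members with 10% or less had a median of -0.62 and the 5 others one of -0.64. On the plain log2 ratio the medians in the same order were -1.12 and -0.77 over all members, -1.36 and -0.72 in the beta cluster (3 and 15 genes) and -1.12 and -2.002 in the gamma cluster. The order of the medians on the plain ratio differed between clusters. The 2 groups also differ in cluster make-up. The group with 10% or less held 5 alpha, 3 beta and 15 gamma members, and the other held 4, 15 and 5. The split cannot separate shared sequence from cluster, and the part of shared sequence in the differences was not tested. It also leaves the constant exons aside, which all protein-coding alpha and gamma members share within their cluster.

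**Figure D5:**
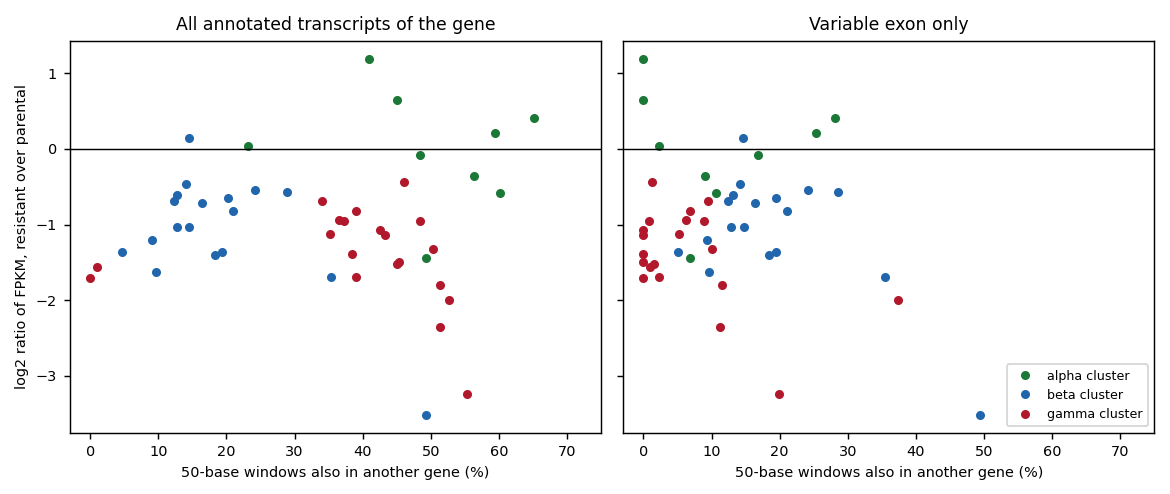
Plain log2 ratio of FPKM, resistant over parental (vertical axis), against the percentage of a gene's 50-base windows that also occur in another gene (horizontal axis), over all its annotated transcripts (left) and over its variable exon (right), 1 point per member. Gamma genes with no shared windows in the variable exon lie under 0 and the C-type alpha genes with none lie above it.

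In the authors' deposited table, 5 members had a q-value under 0.05, all lower in the resistant library, where 3.98% of all genes were lower and 5.13% higher at that threshold. The authors' deposited table gives a q-value of 1.03e-07 for PCDHGC3, 2.73e-05 for PCDHB8, 0.0117 for PCDHGB2, 0.0150 for PCDHGB5 and 0.0161 for PCDHGA8. PCDHB10 had 0.0511 and PCDHB16 0.0914 in the authors' deposited table, where PCDHAC1 had 0.108 and PCDHAC2 0.508. The set therefore differs from the 2-fold calls by 4 genes, PCDHGB5 and PCDHGA8 on one side and PCDHB10 and PCDHB16 on the other. The authors' test is not given, and any test on these libraries compares those 2 libraries, not the conditions.

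Genes around the clusters give the level of the surrounding region in the same libraries. Of 39 other listed genes within 1 Mb, 35 were tested, 2 were called higher and none lower. Over all tested genes 4.59% were called higher and 3.82% lower, so these counts are near the shares over all genes. The median log2 fold was 0.06 over the 35 tested neighbours and -0.02 over all 39. TAF7, a subunit of the general transcription factor TFIID that lies between the beta and gamma clusters, had 41.1 FPKM in parental and 39.5 in resistant cells (log2 fold -0.06). The mitochondrial carrier gene SLC25A2 beside it, named after its values were seen, had 2.51 and 1.97 FPKM (-0.24). The called genes were PCDH1, a protocadherin outside the clusters, with 3.52 and 13.4 FPKM (1.67), and HBEGF, a growth factor of the EGF family, with 3.12 and 7.57 (1.06, and 0.99 and not called with the libraries scaled to equal upper quartiles). The authors' deposited table gives HBEGF a q-value of 0.137. The largest differences under the threshold were those of IGIP, at 5.12 and 2.62 FPKM (-0.76), and PURA, a nucleic acid binding protein, at 4.73 and 7.59 (0.58).

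Protocadherins outside the clusters were split. Of 13 in the list, 5 were listed and 4 tested. PCDH10, a protocadherin of developing neurons, had 23.5 FPKM in parental and 7.27 in resistant cells (log2 fold -1.57), and PCDH18 had 5.66 and 0.618 (-2.04). Both were called lower, and PCDH1 was called higher, where 3.82% of all tested genes were called lower and 4.59% higher. PCDH18 passed the filter only through the parental library, where it was high. PCDH7 had 9.25 and 11.5 FPKM (0.29).

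No RNA of a known regulator of the clusters was past 2-fold on the log2(FPKM + 1) scale. The list of CTCF, cohesin and DNA or histone methylation held 19 genes, all of them tested, and none was called. Over all tested genes 4.59% were called higher and 3.82% lower, so the lack of a call among 19 genes says little. These genes had a median log2 fold of -0.04. CTCF, the insulator protein that binds protocadherin promoters and enhancers, had 8.50 FPKM in parental and 10.5 in resistant cells (0.28). SMCHD1, a repressor of the clusters, had 22.7 and 24.1 FPKM (0.08), and the cohesin subunit RAD21 had 32.4 and 31.6 (-0.04). The largest folds were those of DNMT3B, a DNA methyltransferase, at 0.945 and 2.46 FPKM (0.83, and 1.38 on the plain log2 ratio), ZNF143, a factor found with CTCF at chromatin loops, at 7.26 and 3.89 (-0.76), and the cohesin regulators PDS5B, at 10.6 and 5.96 (-0.74), and PDS5A, at 20.1 and 33.5 (0.71). Of these 19 genes, 2 had a q-value under 0.05 in the authors' deposited table, DNMT3B with 0.0143, higher in the resistant library, and PDS5B with 0.0403, lower in it. DNMT3B was also past 2-fold with a pseudocount of 0.5 (1.04) or 0.1 (1.29), and it passed the filter only through the resistant library, where it was high.

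Among genes of proteins that act with protocadherins at the membrane, the RNA of 1 was past 2-fold. Of 22 listed genes for kinases, the WAVE actin complex, ADAM10 and gamma-secretase, 1 was called higher and none lower. Over all tested genes 4.59% were called higher and 3.82% lower, so this count is near the share over all genes. The 22 genes had a median log2 fold of 0.04. The kinase FYN had 14.7 FPKM in parental and 30.8 in resistant cells (1.02). FYN was not called with the libraries scaled to equal medians (0.96) or upper quartiles (0.94), and the authors' deposited table gives it a q-value of 0.000276. The next largest folds were those of NCKAP1, a WAVE complex subunit, at 35.2 and 61.9 FPKM (0.80), RAC1, the GTPase that activates that complex, at 121 and 194 (0.68), and PSENEN, a gamma-secretase subunit, at 15.1 and 9.22 (-0.66).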

How the data were processed

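One table of 15603 genes was used. It holds FPKM of 1 parental and 1 resistant library, per the file headers, and the authors' log2 ratio, p-values and q-values, per the file headers. How reads were aligned and quantified, with which build and test, is not given in the sources used here, and the library kit is a stranded mRNA kit per the labels' protocols. The log2 column matched the FPKM ratio of each member to within 8.03e-06. Low values of single-exon genes, searched for steps of 1 fragment, gave no fragment counts (24.4% of values in either library within 0.1 of a whole multiple at the best step, 20% by chance), so depth and counting error are unknown.

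Folds used log2(FPKM + 1), a filter of 1 FPKM in either library and a 2-fold threshold. With 1 library per group no test was run. Members were matched by identifier to GENCODE release 29 (GRCh38), which held 15531 of the listed genes and placed each member within its listed locus. Shared sequence was counted in 50-base windows over all GENCODE transcripts. The code for folds and calls was tested on simulated data, which says nothing about the calls in these libraries. Genes outside the clusters were named if they were among the 4 largest folds of their list, with CTCF, SMCHD1, RAD21 and TAF7 always named. Members and lists were chosen with earlier results of these data known. Alternatives were pseudocounts of 0.1 and 0.5, filters, scalings, thresholds and sets of members. Python 3.11.15, pandas 2.3.3, numpy 2.4.6 and scipy 1.17.1 were used.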

Additional observations from a re-analysis of the deposited data

How the results depend on the processing

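The medians of the beta and gamma clusters were negative under every alternative run, from -0.89 to -0.48 and from -1.35 to -0.62, and the alpha median stayed between -0.03 and 0.04. The number of members called lower depended most on the added constant and the threshold. With a pseudocount of 0.1, 16 members were called lower and 1 higher, the median over tested members was -0.94 and the gamma median -1.22. With a pseudocount of 0.5, 9 were called lower. At 1.5-fold 17 were called lower and 1 higher, where 1674 of all 13937 tested genes were lower and 2020 higher, and at 4-fold 1 was called lower. The plain ratio among the 36 tested members, chosen after seeing the data, gave 18 lower and 1 higher, with medians of -0.99 for these members, -0.82 for beta and -1.35 for gamma. The shares over all tested genes were not counted with the other pseudocounts, at 4-fold or on this plain ratio. A smaller added constant enlarges the fold of any low gene, so the rise in calls is not particular to the members. With a filter of 5 FPKM, the median was -0.89 over 10 members and -0.89 over 7 beta genes, and that of 3 classical cadherins -0.062. Without the filter the median of other protocadherins was 0.29 over 5 genes, where it was -0.64 over the 4 tested, and that of classical cadherins was 0.12, where it was 0.42 over the 8 tested. Using only members that share no locus left PCDHB2, not called, so 0 were called lower. Scaling to the median or upper quartile and leaving out genes at 0 changed no count of members called by over 1.5 times. No called member lost its call in these settings of pseudocount, filter and scaling while it was tested. PCDHB7 gained one with either scaling, with either pseudocount and on the plain ratio. Several other members gained one with a pseudocount or the plain ratio. PCDHAC1 was called higher with a pseudocount of 0.1 and on the plain ratio. DNMT3B gained a call with either pseudocount and on the plain ratio. FYN lost its call with either scaling. HBEGF lost its call with scaling to the upper quartile and kept it with scaling to the median (1.01). Summed over tested members, the parental over resistant ratio was 1.96 for beta, 2.33 for gamma and 0.818 for alpha, and without PCDHGC3, added after seeing the data, the gamma ratio was 2.07. No paired analysis was possible because each group holds 1 library and the comparison has no test. Values under 1 FPKM rest on an unknown number of fragments.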

Other observations

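Classical and other cadherins, the wider family of calcium-dependent adhesion proteins, were split, with 5 of the 10 listed genes higher and 5 lower in the resistant library. Of 19 in the list, 8 were tested, with 3 called higher and none lower, where 4.59% of all tested genes were called higher. The median log2 fold was 0.12 over the 10 listed genes. CDH18 and CDH4 passed the filter only through the resistant library, where they were high. CDH18 had 0.462 FPKM in parental and 4.68 in resistant cells (1.96), CDH4, known as R-cadherin, had 0.531 and 2.85 (1.33), and CDH12 had 1.03 and 3.51 (1.15). CDH13, a cadherin anchored to the membrane by a lipid, had 80.7 and 117 FPKM (0.53) and was not called. CDH2, N-cadherin, which was named after its values were seen, was the most abundant in the parental library, with 115 FPKM there and 109 in the resistant one (-0.08). The difference between these cadherins and the clustered protocadherins was not tested.

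The table also lists 2 noncoding genes within the beta locus that are no protocadherins by name. CH17-140K24.5, which overlaps PCDHB16 and PCDHB9 on the same strand, had 0.748 FPKM in parental and 0.327 in resistant cells, and AC005754.8 had 1.33 and 1.62.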
